A study of Mus musculus with 6 samples.

Results

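The genes described here encode keratins and the proteins of the cornified envelope. They were chosen by name from a table of 29595 genes: every gene called Krt followed by a number alone, every gene whose name starts with Sprr, and Scel, Ivl, Evpl, Ppl, Tgm1 and Lor. The rule found 59 genes, made up of 39 keratins, 14 small proline-rich genes and 6 other envelope genes. Among the keratins, 5 belong to simple epithelia (Krt7, Krt8, Krt18, Krt19 and Krt20), and the other 34 were kept apart from them. Most of these are keratins of skin, hair, cornea or other stratified tissue, and 7 were placed in no tissue class.

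RNA was sequenced from TKPTS cells, a mouse line from the proximal tubule of the kidney, 24 h after transfection. The Hnf3a group (3 libraries) received pcDNA3.1-Hnf3a-Flag, which carries Flag-tagged HNF3α (gene symbol Foxa1), a forkhead transcription factor. The pcDNA group (3 libraries) received pcDNA3.1-Flag, the same plasmid without the insert. All cells were of 1 line, both groups were transfected, and the level of the factor in the Hnf3a group was set by the plasmid and not by the gene's own promoter. Foxa1 lay between 284 and 334 FPKM (fragments per kilobase of transcript, scaled to library size) in the Hnf3a libraries, against between 9.49 and 9.96 FPKM in the pcDNA libraries.

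Keratins are the intermediate filament proteins of epithelial cells. A type I and a type II keratin pair to build the filament, so the partners are usually made together. Krt8 (type II) with Krt18 (type I) is the founding pair of single-layered epithelia, Krt7 (type II) pairs with Krt19 (type I) in ducts, and Krt5 with Krt14, then Krt1 with Krt10, mark the basal and upper layers of the epidermis. Krt6, Krt16 and Krt17 are made in wounded or stressed epithelium. The cornified envelope is a protein shell laid under the membrane of dying surface keratinocytes. Transglutaminase 1 (Tgm1) cross-links it from involucrin (Ivl), loricrin (Lor), the small proline-rich proteins (Sprr), envoplakin (Evpl), periplakin (Ppl) and sciellin (Scel). In the kidney the tubule is a simple epithelium, and its injured cells are known to raise several simple keratins.

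Promoter sequence is shown first, because the plasmid encodes a factor that binds DNA and because a motif was shared by the envelope genes. RefSeq promoters (build GRCm38.p6, 250 bases before to 50 bases after a gene's start) were found for 21 of the 30 members with enough counts to be tested. The genes with a sequence included Krt18 and Scel, both higher in the Hnf3a group, and the stretch before the start of each is printed 5′ to 3′, with a TGANTCA match in capitals. Krt18 is given at chr15:102027966-102028179 on the plus strand, directly before the gene's first base in the table.
Krt18: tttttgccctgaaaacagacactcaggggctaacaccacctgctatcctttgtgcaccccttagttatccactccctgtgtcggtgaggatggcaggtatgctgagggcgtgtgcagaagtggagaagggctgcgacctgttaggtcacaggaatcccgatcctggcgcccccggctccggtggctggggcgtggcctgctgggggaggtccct
Scel is given at chr14:103513091-103513340, also on the plus strand.
Scel: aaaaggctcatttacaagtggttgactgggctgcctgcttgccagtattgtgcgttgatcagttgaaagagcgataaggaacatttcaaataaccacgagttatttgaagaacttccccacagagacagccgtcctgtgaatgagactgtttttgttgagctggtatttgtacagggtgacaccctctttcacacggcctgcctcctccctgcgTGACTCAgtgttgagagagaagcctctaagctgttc
The forkhead letters TGTTTAC or TATTTAC, searched on both strands, were in 0 of the 22 promoters of the 21 members, against 6.54% of all 32851 promoters of the same length. This says only that those letters are not in these windows. Krt16 and Krt19, which also differed between the groups, had no sequence in this set and were not searched, nor were Krt17 and Krt6a.

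The letters TGANTCA, to which AP-1 (Fos and Jun) proteins bind, read the same on both strands. They were in 7 of 8 tested small proline-rich or envelope genes with a sequence and in 0 of 13 tested keratins with one, against 7.81% of all promoters. The genes were Lor, Ivl, Scel, Sprr1a, Sprr2e, Sprr2f and Sprr2h. Tgm1 was the gene without a match. The sites are shown with 11 bases on each side, in the direction of the gene and with the match in capitals, so that their surroundings can be compared.
Lor, chr3:92083173-92083201, minus strand: tgatcaatagaTGAGTCAgagcaggacaa
Sprr2e, chr3:92351939-92351967, plus strand: tgagtgctcacTGAGTCAcaggtctcaac
Sprr2f, chr3:92364979-92365007, plus strand: aaactgaatatTGAGTCAcagtgctcaac
Sprr2h, chr3:92385476-92385504, plus strand: gggatggtctcTGAGTCActgcactttac
Sprr1a (farther site), chr3:92486010-92486038, minus strand: ataactaaagcTGAGTCAgagggtgaact
Sprr1a (nearer site), chr3:92485980-92486008, minus strand: ggggaggagggTGAGTCAtaggtgactgg
Ivl, chr3:92573834-92573862, minus strand: aagttatcagaTGACTCAgaaaggaagga
Scel, chr14:103513294-103513322, plus strand: tcctccctgcgTGACTCAgtgttgagaga
Each Sprr and envelope gene listed lies on chromosome 3 except Scel, which is on chromosome 14. Sprr2e, Sprr2f and Sprr2h are close relatives within 1 gene family, and their sites lie at like distances, 190, 194 and 195 bases before the start. The centre of the Scel site lies 33 bases before the start. Matches of this kind are letters and not measured binding.

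Hnf3a replicates 2 and 3 stood apart from the other libraries in markers of other cell types. All 8 markers of a fibroblast list exceeded the detection floor of 12 counts (about 3 sequenced fragments) in both, against 3 in Hnf3a replicate 1 and 0 to 2 in the pcDNA libraries. Their summed level was 65.2 and 81.9 CPM (counts scaled to library size) in those libraries, 1.52 in Hnf3a replicate 1 and between 0.48 and 1.0 in the pcDNA libraries. Summed skeletal muscle markers were 8.29 and 8.77 CPM there and between 2.02 and 3.14 CPM in the other 4 libraries, and summed macrophage markers were 35 and 37.7 CPM there against 25.6 to 29.3 CPM. The total count was between 60473818 (pcDNA replicate 1) and 71154667 (Hnf3a replicate 2) per library. Of 12 proximal tubule markers, 9 were in the table, with 7 or 8 above the floor in each library and a summed level of 21.9 to 26.8 CPM. Slc5a2, the glucose transporter of the early proximal tubule, was at or under the floor in every library.

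Of the 59 members, 30 had enough counts to be tested (20 with counts divided by 4) and 21 were at or under the floor in all 6 libraries. Between the groups, 5 of the 30 passed the threshold of an adjusted p of 0.05 (edgeR's quasi-likelihood test, Benjamini-Hochberg adjustment over 17824 genes), or 16.7%, against 3.17% of all genes tested. Krt18, Krt19 and Scel were higher in the Hnf3a group, and Krt16 and Tgm1 were lower. Higher calls made up 1.04% and lower calls 2.13% of all genes. With Hnf3a replicates 2 and 3 both left out, 3 of the 5 passed (Krt16, Krt18 and Scel). The libraries of the groups did not overlap in 13 of the 30 members (43.3%), 8 higher and 5 lower, against 18.9% of all genes. The median log2 fold change was 0.068 over the tested members and 0.001 over all genes.

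**Figure D1:**
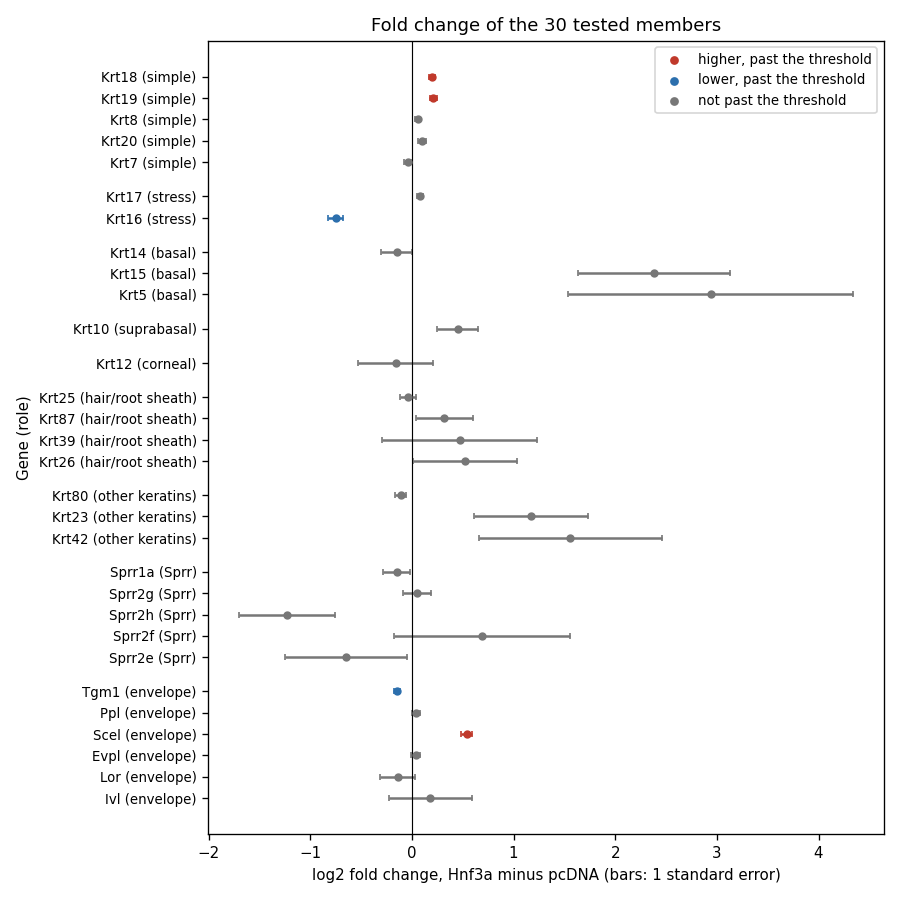
Log2 fold change (Hnf3a minus pcDNA, horizontal axis) of the 30 tested members, grouped by role. Points are edgeR estimates and bars 1 standard error. The simple keratins have short bars close to 0, while Krt5 and Krt15, at 2.94 and 2.38, have the widest positive differences and long bars.

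TKPTS cells held much keratin RNA, nearly all of it from few genes. Krt7, Krt8, Krt17, Krt18, Krt19 and Krt20 together made up 95.8% to 96.6% of the summed FPKM of the 43 keratins in the table, genes with a letter such as Krt6a included. In the pcDNA group the order by mean FPKM was Krt17 (241 ± 4.3, SD, n = 3), Krt18 (214 ± 3.99), Krt19 (167 ± 7.26), Krt8 (142 ± 1.26), Krt20 (71.6 ± 2.34) and Krt7 (55.8 ± 0.821), and no neighbours in this order overlapped. In the Hnf3a group the order was the same, but Krt17 (256 ± 10.4) and Krt18 (247 ± 2.88) overlapped. Below these, Krt16, Krt25 and Krt80 lay between 5.42 and 12.3 FPKM, and Krt14 and Krt10 between 0.906 and 2.4 FPKM.

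**Figure D2:**
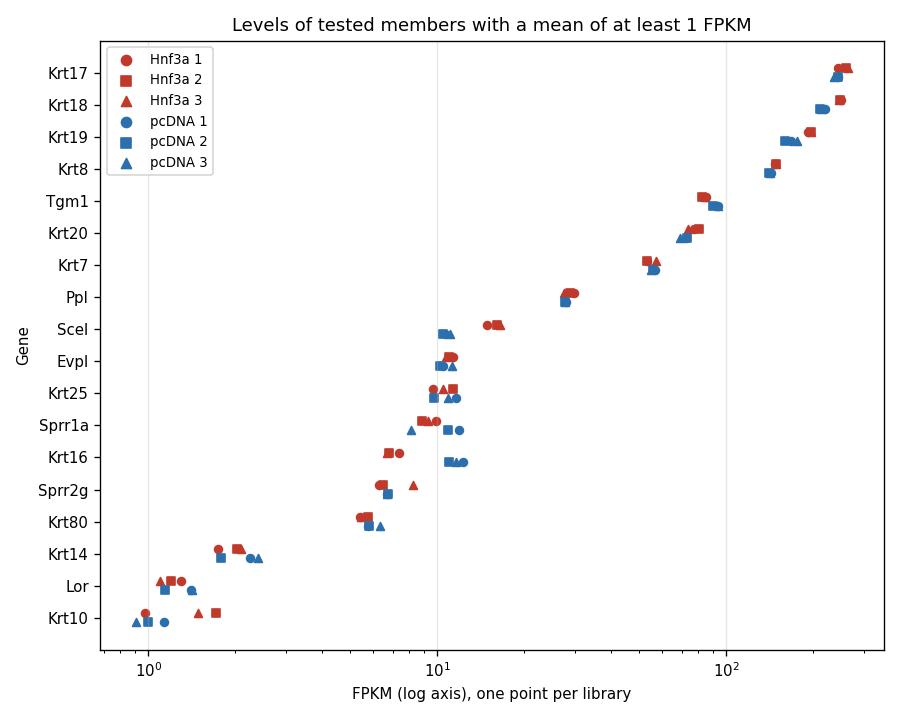
FPKM per library (horizontal log axis) of the tested members with a mean of at least 1 FPKM, ordered by level. Red marks are Hnf3a libraries and blue marks pcDNA libraries, with circles, squares and triangles for replicates 1, 2 and 3. The 4 top genes are Krt17, Krt18, Krt19 and Krt8, and the colours stand apart most clearly in Scel and Krt16.

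Among the simple keratins, 2 of 5 rose and the other 3 did not pass the test. Krt18 (ENSMUSG00000023043, chromosome 15, 102028180 to 102032027, plus strand, 7 exons) is the type I partner of Krt8. It was at 250, 247 and 245 FPKM in Hnf3a replicates 1, 2 and 3 and at 219, 211 and 212 FPKM in the pcDNA libraries. Every Hnf3a library lay above every pcDNA library, a difference of 15% (log2 fold change 0.20, SE 0.029, edgeR adjusted p = 0.00148). It passed in all 16 alternative fits.

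Krt19 (ENSMUSG00000020911, chromosome 11, 100140810 to 100146120, minus strand, 6 exons), the smallest type I keratin and a marker of ducts, was at 191, 197 and 197 FPKM in the Hnf3a libraries. In the pcDNA libraries it was at 167, 160 and 175 FPKM. The groups were again apart, by 16% (log2 fold change 0.21, SE 0.034, edgeR adjusted p = 0.00269). Without Hnf3a replicates 2 and 3 its adjusted p was 0.0645.

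The other simple keratins, the type II members Krt8 and Krt7 among them, did not pass the test. Krt8 (ENSMUSG00000049382, chromosome 15, 101996698 to 102004482, minus strand) was at 147, 149 and 148 FPKM with the Hnf3a plasmid and at 143, 140 and 142 FPKM with the empty plasmid. These values did not overlap either, but the difference was 3.9% and missed the threshold (log2 fold change 0.056, 95% interval 0.00 to 0.11, edgeR adjusted p = 0.424). Krt7 had 53.3, 53.2 and 56.9 FPKM against 56.6, 55.8 and 54.9 FPKM, with overlapping groups (log2 fold change -0.042, interval -0.11 to 0.02, edgeR adjusted p = 0.662). Krt20, a type I keratin of gut and urothelial surface cells, had 77.5, 80.2 and 73.7 FPKM against 72.7, 73.1 and 68.9 FPKM (log2 fold change 0.10, interval 0.02 to 0.18, edgeR adjusted p = 0.26). Krt8 and Krt18 are neighbours, 23.7 kb apart on chromosome 15. Krt8 shares 22% of the 75-base stretches of its longest transcript with a pseudogene, Krt8-ps, while Krt18 and Krt19 share 0% with any other gene. Genes on the opposite strand overlap Krt8 (Gm36026) and Krt7 (Gm671), and it is not known whether strand was used in counting.

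**Figure D3:**
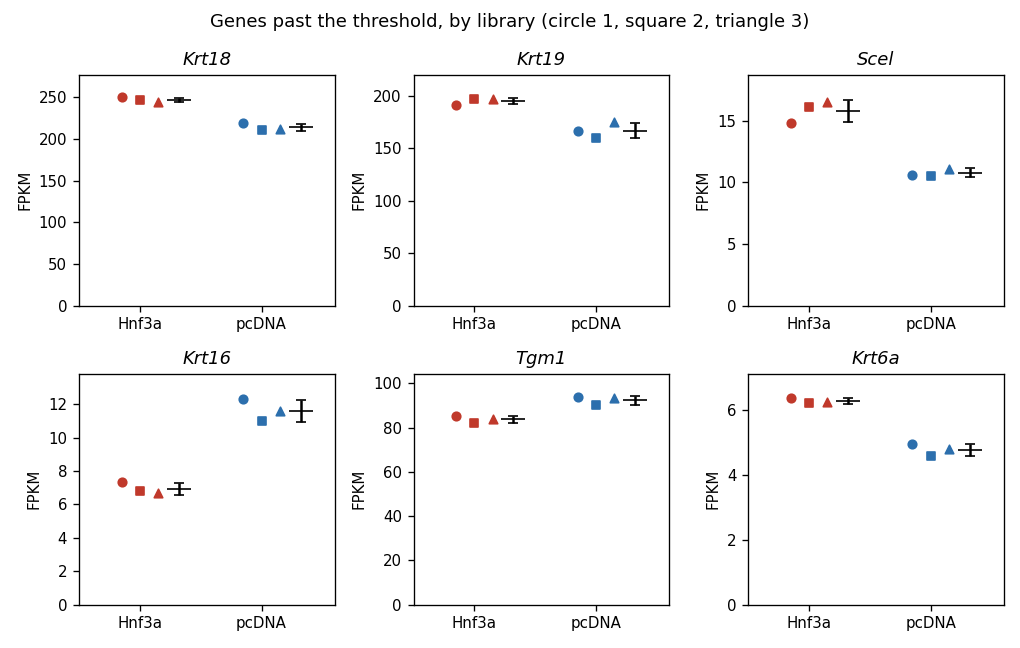
FPKM per library of the 5 members past the threshold and of Krt6a, with each vertical axis starting at 0. Circles, squares and triangles are replicates 1, 2 and 3, and the black mark and bars give the group mean and SD (n = 3). In every panel the 3 libraries of a group lie together and the groups do not overlap.

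The uneven differences of the partners appeared as ratios within a library, which do not depend on how libraries are scaled. The ratio of Krt18 to Krt8 was 1.70, 1.66 and 1.65 in the Hnf3a libraries, against 1.53, 1.51 and 1.5 in the pcDNA libraries. The ratio of Krt19 to Krt8 was 1.3 to 1.33 against 1.14 to 1.23. Summed over all keratins assigned to a type (22 of type I, 20 of type II), type I came to 785, 806 and 802 FPKM against 729, 712 and 718 FPKM. Type II came to 214, 217 and 219 FPKM against 211, 207 and 209 FPKM. The ratio of type I to type II was thus 3.69 ± 0.0284 in the Hnf3a group and 3.44 ± 0.0127 in the pcDNA group (SD, n = 3). None of these ratios overlapped between groups. Each ratio of 2 genes holds a keratin past the threshold, and the type I sum includes Krt18 and Krt19. The ratios therefore restate those calls and add no support. An exact permutation test (two-sided) gave p = 0.1 for each ratio of 2 genes, which is the smallest value this test can give with 3 libraries against 3, so it cannot go below 0.05 here.

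**Figure D4:**
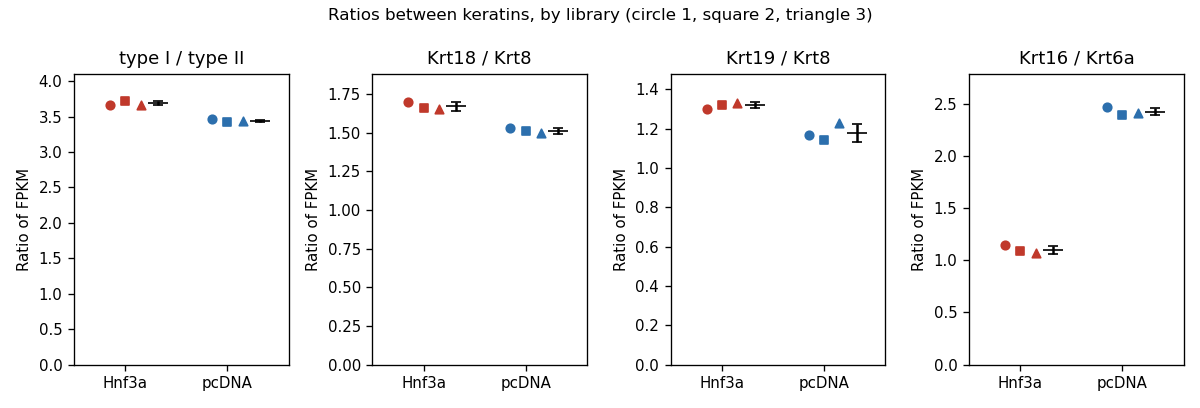
Ratios of FPKM per library, with every vertical axis starting at 0 and the group mean and SD (n = 3) in black. The ratio of Krt16 to Krt6a falls from about 2.43 in the pcDNA group to 1.1 in the Hnf3a group, and the other 3 ratios are higher in the Hnf3a group.

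Of the 2 stress keratins in the naming rule, Krt16 fell and Krt17 did not pass the test. Krt16 (ENSMUSG00000053797, chromosome 11, 100246091 to 100248902, minus strand, 8 exons), a type I keratin of healing skin, was at 7.34, 6.78 and 6.67 FPKM in the Hnf3a libraries. In the pcDNA libraries it was at 12.3, 11 and 11.6 FPKM. All 3 Hnf3a libraries were below all 3 pcDNA libraries, and the level fell by 41% (log2 fold change -0.75, SE 0.076, edgeR adjusted p = 6.05e-05). The call held in all 16 alternative fits. Of the 34 keratins outside the simple class, 14 were tested and Krt16 alone passed.

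Krt17 (ENSMUSG00000035557, chromosome 11, 100256217 to 100261029, minus strand) lies 7.3 kb from Krt16 and had the highest mean FPKM of the keratins in both groups, although Krt18 exceeded it in Hnf3a replicate 1. It had 244, 259 and 264 FPKM with the Hnf3a plasmid, against 243, 244 and 236 FPKM with the empty plasmid. The groups did not overlap after scaling, but Hnf3a replicate 1 was close to the pcDNA level and the test was not passed (log2 fold change 0.079, SE 0.033, edgeR adjusted p = 0.294). The ratio of Krt16 to Krt17 was 0.0252 to 0.03 in the Hnf3a libraries, against 0.045 to 0.0504 in the pcDNA libraries.

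Krt6a carries a letter and so falls outside the naming rule, but it encodes the type II partner of Krt16. It was at 6.39, 6.23 and 6.25 FPKM against 4.96, 4.57 and 4.79 FPKM, higher in every Hnf3a library (log2 fold change 0.39, SE 0.073, edgeR adjusted p = 0.00863). The adjusted p was 0.0592 without pcDNA replicate 2 and 0.0957 without Hnf3a replicates 2 and 3. The ratio of Krt16 to Krt6a was 1.15, 1.09 and 1.07 in the Hnf3a libraries, against 2.47, 2.40 and 2.42 in the pcDNA libraries. Krt6b missed the threshold (log2 fold change 0.32, SE 0.23, edgeR adjusted p = 0.621). Close copies limit these values: Krt16 shares 28.9% of its 75-base stretches with Krt14 or Gm11597, and Krt6a shares 37.5% with other type II keratins, so reads could have been divided between them.

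Among the genes of the cornified envelope, 1 of 6 rose, 1 fell and 4 did not pass. Scel (ENSMUSG00000022123, chromosome 14, 103513342 to 103612797, plus strand, 30 exons) encodes sciellin, a precursor of the envelope. It was at 14.8, 16.1 and 16.5 FPKM in the Hnf3a libraries, against 10.6, 10.5 and 11.1 FPKM in the pcDNA libraries. The groups were far apart relative to their spread, and the level was 46% higher with the Hnf3a plasmid (log2 fold change 0.54, SE 0.054, edgeR adjusted p = 4.86e-05). The call held in all 16 alternative fits.

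Tgm1 (ENSMUSG00000022218, chromosome 14, 55700009 to 55713492, minus strand, 15 exons), the cross-linking enzyme, had the highest FPKM of the 6 envelope genes in the naming rule. It was at 85.2, 82.1 and 84.1 FPKM in the Hnf3a libraries, against 93.7, 90 and 93.2 FPKM in the pcDNA libraries. It fell by 9.7% (log2 fold change -0.15, SE 0.031, edgeR adjusted p = 0.0194). This call was lost in 7 of the 16 alternative fits, with an adjusted p of up to 0.191 and the direction kept. An annotated gene on the opposite strand, Gm49067, overlaps Tgm1.

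The plakins, which tie the envelope to desmosomes and keratin filaments, did not pass the test. Ppl had 29.8, 28.7 and 27.4 FPKM against 27.9, 27.6 and 27.6 FPKM (log2 fold change 0.041, approximate 95% interval -0.03 to 0.11). Evpl had 11.3, 11 and 10.7 FPKM against 10.5, 10.2 and 11.2 FPKM (log2 fold change 0.039, interval -0.04 to 0.12). The 2 structural proteins that fill the envelope in skin were low: Lor lay between 1.1 and 1.41 FPKM and Ivl between 0.147 and 0.377 FPKM over all libraries. The edgeR adjusted p of these 4 genes was between 0.711 and 0.919.

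None of the 5 tested small proline-rich genes passed edgeR's quasi-likelihood test, none passed with DESeq2 or limma, and 9 of the 14 had too few counts. Of the 5, 1 had an unadjusted edgeR p under 0.05, against 2412 of all 17824 genes tested. Sprr1a, the most abundant, had 9.93, 8.84 and 9.28 FPKM against 11.9, 10.9 and 8.13 FPKM. The low value of pcDNA replicate 3 put the groups into overlap (log2 fold change -0.15, SE 0.13, edgeR adjusted p = 0.712). Sprr2g had 6.26, 6.48 and 8.26 FPKM against 6.69, 6.74 and 6.71 FPKM. Sprr2h was the member with the lowest fold change, with 21, 21 and 8 counts in the Hnf3a group and 46, 33 and 31 in the pcDNA group (log2 fold change -1.23, SE 0.47, edgeR adjusted p = 0.245). Sprr2e, at 8 to 19 counts, also had groups that did not overlap, but it exceeded the floor in only 1 library. The genes of this family are near copies: Sprr2a1 and Sprr2a2 share 94.3% and 94.6% of their 75-base stretches with other genes, and the few counts assigned to each are uncertain.

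The skin keratins at low counts gave the largest fold changes and the least even ones. Krt5, the basal type II keratin, had 7, 146 and 100 counts in the Hnf3a group and 13, 0 and 17 across the pcDNA libraries. Its log2 fold change was 2.94 with an SE of 1.4, and its edgeR adjusted p was 0.474. Krt15, a basal type I keratin, had 38, 67 and 93 counts against 0, 17 and 19 counts, so that its groups did not overlap (log2 fold change 2.38, SE 0.75, edgeR adjusted p = 0.178). It passed the threshold in 1 of the 16 alternative fits, with counts divided by 4 (adjusted p = 0.0193). Krt5 was high in Hnf3a replicates 2 and 3 alone, while the Krt15 count of Hnf3a replicate 1 lay closest to the pcDNA libraries.

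Other keratins of the epidermis had too few counts for the test. Krt77, a type II keratin, had 0, 64 and 48 counts with the Hnf3a plasmid, and Krt1, of the upper epidermis, had 3, 38 and 15. Both were listed at 0 in all pcDNA libraries. With no filter beyond 1 count, Krt1 was tested on all libraries and passed the threshold. All its counts were in the Hnf3a group, so this call adds no support. Krt79 had 0, 14 and 23 counts against 0, 4 and 0 counts. Krt9, of palm and sole skin, differed from these: its counts were 26, 20 and 0 with the Hnf3a plasmid and 0 in every pcDNA library. Krt10, the type I partner of Krt1, had 150, 287 and 231 counts against 162, 155 and 141 counts, with Hnf3a replicate 1 inside the pcDNA range (log2 fold change 0.45, SE 0.20, edgeR adjusted p = 0.361).

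The libraries with high skin keratin counts were those with the fibroblast markers. These 5 genes, Krt1, Krt5, Krt15, Krt77 and Krt79, were picked after their counts were seen, so their sum describes the pattern and adds no support to it, and Krt14 and Krt9 do not share it. The summed level was 0.739, 4.62 and 4.26 CPM in Hnf3a replicates 1, 2 and 3, and 0.215, 0.319 and 0.551 CPM in the pcDNA libraries. All 5 genes exceeded the floor in Hnf3a replicates 2 and 3, 1 did in Hnf3a replicate 1, and 1, 1 and 2 did in the pcDNA libraries. A list of 10 further keratinocyte markers, none of them a member, had a summed level of 68.8, 73.6 and 76.9 CPM against 77.8, 79.6 and 78.2 CPM, most of it from Sbsn, Dmkn and Dsg3. Of the list, 5, 7 and 6 markers exceeded the floor in the Hnf3a group, against 5, 4 and 5. Some low markers were higher in Hnf3a replicates 2 and 3, among them the desmosomal cadherin Dsc3, with 0, 13 and 26 counts against 0 in every pcDNA library. In that list Trp63, the factor that defines basal keratinocytes, and Calml3 and Krtdap were at or under the floor in every library. The part that RNA of other cell types had in the skin keratin counts was not tested. In such bulk samples a change in the number of cells of a type and a change in RNA per cell cannot be told apart.

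**Figure D5:**
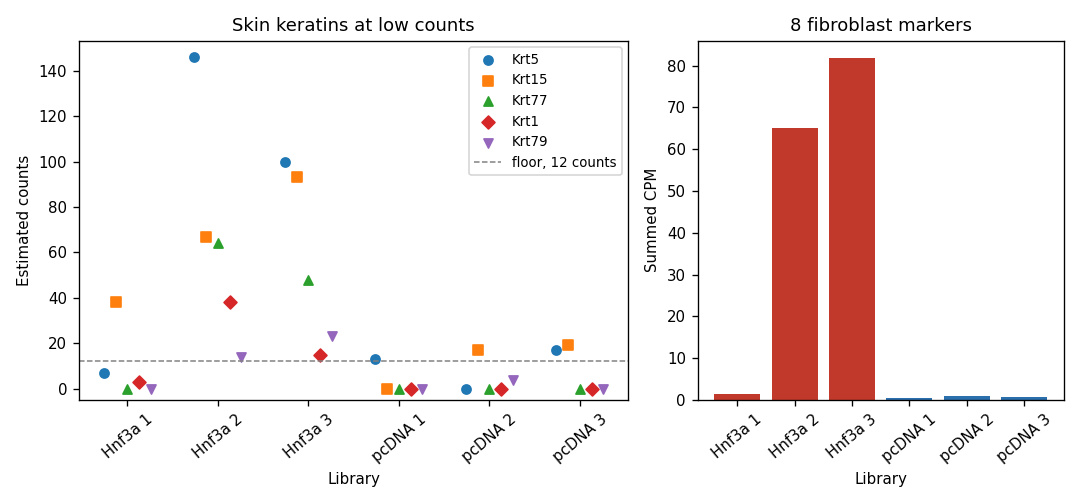
Left, estimated counts of Krt5, Krt15, Krt77, Krt1 and Krt79 in each library, with a dashed line at the floor of 12 counts. Right, summed CPM of 8 fibroblast markers in the same libraries (bars). Both are highest in Hnf3a replicates 2 and 3.

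Krt14, the basal type I keratin that pairs with Krt5, had 223, 282 and 271 counts against 268, 232 and 308 counts, with overlapping groups (log2 fold change -0.15, SE 0.15, edgeR adjusted p = 0.77). Krt25, a root sheath keratin, was the most abundant hair keratin, with 9.66, 11.3 and 10.5 FPKM against 11.6, 9.73 and 10.9 FPKM (log2 fold change -0.04, SE 0.077). Krt80, which is made in many epithelia, had 5.42, 5.77 and 5.46 FPKM against 5.76, 5.80 and 6.34 FPKM. Its log2 fold change of -0.11 (SE 0.052) gave an edgeR adjusted p of 0.358. Krt87 had groups that did not overlap at a low level, with 57, 70 and 58 counts against 45, 54 and 40 counts (log2 fold change 0.32, edgeR adjusted p = 0.705). It shares 22.4% of its 75-base stretches with Krt81, Krt83, Krt86 or Gm49425, so reads could have been divided between them. Krt39, Krt26, Krt12, Krt23 and Krt42 had at most 50 counts in any library, and none passed the test. Of the 14 hair and root sheath keratins in the table, 10 were not tested and 9 were at or under the floor throughout.

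Genes that work beside the members were counted from lists of other envelope genes, desmosome and keratin anchor proteins, regulators of epithelial differentiation, and other intermediate filaments. Of 72 genes of these lists in the table, 50 were tested and 4 passed (8.0%), 2 higher and 2 lower, against 3.17% of all genes tested. Anxa1, which encodes the envelope and membrane protein annexin A1, fell from 219 ± 8.41 to 171 ± 5.87 FPKM (SD, n = 3; log2 fold change -0.37, edgeR adjusted p = 3.21e-05). Ehf, an ETS factor of epithelia, fell from 20.5 ± 0.658 to 15.9 ± 0.559 FPKM (SD, n = 3; log2 fold change -0.38, edgeR adjusted p = 6.13e-05).

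The 2 higher genes were less stable. Ovol2, a zinc finger factor that keeps cells epithelial, had 256, 265 and 231 counts against 128, 94 and 170 counts (log2 fold change 0.85, SE 0.20, edgeR adjusted p = 0.037), and the call was lost in 8 of 16 alternative fits. Nes, which encodes the filament protein nestin, was at 60.3, 59.0 and 55.5 FPKM against 52.2, 52.9 and 51.2 FPKM (log2 fold change 0.15, SE 0.034, edgeR adjusted p = 0.0281), with the call lost in 7 of 16. None of the 10 anchor genes passed edgeR's quasi-likelihood test on all libraries, DESeq2 or limma. Of the 10, 3 had an unadjusted edgeR p under 0.05, against 2412 of all 17824 genes tested. With 1 library left out at a time, only Eppk1 passed, when Hnf3a replicate 1 was left out (edgeR adjusted p = 0.0488). The anchor genes included desmoplakin (Dsp, log2 fold change 0.13, SE 0.051, edgeR adjusted p = 0.253) and plectin (Plec, 0.002, SE 0.098). Dsp passed only without Hnf3a replicates 2 and 3, a fit that keeps Hnf3a replicate 1 alone in its group.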

How the data were processed

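The labels gave each sample its group and replicate number. Nothing in the sources states that the replicates came from separate cultures, so p-values measure the spread between these samples, which may be technical. Strand-marked polyadenylated RNA libraries had molecular identifiers in the adapters. The submitters' processing notes name cutadapt 1.9, HISAT2 2.0.4, UMI-tools, StringTie 1.3.4d, DESeq2, edgeR and the build mm10, without their roles; the use of strand in counting is not given in the sources used here. The authors deposited, for each gene and library, an estimated count and an FPKM value. The estimated counts were whole numbers. Genes peaked at 4 counts, so 1 fragment was taken as about 4 counts and the floor set at 12 counts (0.169 to 0.198 CPM), which covers counting error only.

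Genes were filtered (filterByExpr), scaled by TMM and tested two-sided with edgeR 4.0.16 in R 4.3.3 (estimateDisp, robust glmQLFit, glmQLFTest) with no covariate. The Benjamini-Hochberg adjustment covered the 17824 genes that passed the filter, and 0.05 was the threshold. Standard errors came from the fold change and the F statistic (the log2 value over the root of F), and groups were called not overlapping on TMM-scaled CPM. The procedure was tested on simulated data. Alternatives were other scalings and filters, counts divided by 4, DESeq2 1.42.0, limma 3.58.1 on log2(FPKM + 0.1) and log2(FPKM + 1), the replicate number as a block, and leaving out libraries. Leaving out Hnf3a replicates 2 and 3 together was added after the data were seen.

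The members and lists were chosen with earlier results of these data known. The genes named were members past the threshold, up to 4 tested members of each role with the highest FPKM, tested members whose groups did not overlap, Foxa1, and genes of the neighbouring lists past the threshold. Other genes with values were chosen after their values were seen. Coordinates are those of the table. Start and end were identical in GENCODE vM21 (GRCm38) for 26766 of the 29514 genes in both. Exons and shared 75-base stretches are of the longest transcript there.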

Additional observations from a re-analysis of the deposited data

How the results depend on the processing

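Krt16, Krt18 and Scel passed the threshold in all 16 alternative fits, Krt19 in 15 and Tgm1 in 9, each with its direction kept. Their log2 fold changes ranged from -0.80 to -0.66, 0.19 to 0.23, 0.46 to 0.59, 0.18 to 0.25 and -0.16 to -0.12. The count of members past the threshold was 3 with both Hnf3a libraries 2 and 3 left out, and 4 to 7 when 1 library was left out. The added members were Krt1 and Krt77 without Hnf3a replicate 1 and Krt9 without Hnf3a replicate 3. These genes were at 0 counts in every pcDNA library. Each library left out was the Hnf3a library with the fewest counts of the gene, so these calls add no support. With no filter beyond 1 count, 6 members passed, Krt1 being added through its Hnf3a counts alone. Of the 25 tested members not past the threshold, 1 (Krt15) passed it in some alternative. The count for the neighbouring lists was 2 with limma on log2(FPKM + 0.1), 2 with log2(FPKM + 1), and 2 to 5 when 1 library was left out. With DESeq2 the count was 6, Vim and S100a10 being added. No count for these lists is given without both Hnf3a libraries 2 and 3, since that fit keeps Hnf3a replicate 1 alone in its group. Anxa1 and Ehf were past the threshold each time, and the cause of the lost or added calls was not tested. With the replicate number as a block, the count was 5 for the members and 4 for the neighbouring lists, the same genes. Same-numbered libraries did not deviate together (r between -0.0411 and 0.00998), and the labels give them no link beyond the number. The block changed no call among the members or the neighbouring lists. Over all genes, 463 passed with the block and 565 without it. The median over all genes moved by at most 0.013 under any scaling. Role medians of the low keratins rest on 1 to 4 tested genes and moved with the filter. Below about 12 counts a difference was not detectable at this depth.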

Other observations

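The other intermediate filaments were measured beside the keratins. Vim, which encodes vimentin, the filament protein of mesenchymal cells, had 242, 822 and 743 counts with the Hnf3a plasmid, against 207, 188 and 145 with the empty plasmid. Its groups did not overlap, with the high values in Hnf3a replicates 2 and 3. The edgeR test on all libraries was not passed (log2 fold change 1.64, SE 0.51, edgeR adjusted p = 0.279). Vim passed with DESeq2 on all libraries, and with edgeR when Hnf3a replicate 1 was left out. At 0.416 to 2.18 FPKM it lay far below Krt18, at 211 to 250 FPKM. The lamins, which line the nucleus, did not pass the test: Lmna, Lmnb1 and Lmnb2 had log2 fold changes of 0.023 (SE 0.032), 0.027 (SE 0.036) and 0.039 (SE 0.048). Of 10 tested genes in this list Nes alone passed edgeR's test on all libraries.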
